A study of Mus musculus with 4 samples.

Results

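The type I interferon response genes are a list of 45 mouse genes that cells turn on after exposure to interferon alpha or beta. Each was read from the annotation of the array by its symbol and represented by the brightest of its probe sets, judged by mean log2 signal over the 4 arrays. Of the 45 genes, 43 were measured in this way, out of 18193 genes with at least 1 probe set of their own. The others were Ifi44, for which no probe set was listed, and Isg15, whose only probe set was annotated to both Isg15 and Gm9706.

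The study asked what ovarian tumour cells do to dendritic cells, and its title concerns Toll-like receptor 3 and the binding of SOCS3 to TYK2, a kinase of the interferon receptor. Bone marrow of male C57BL/6 mice aged 6 to 8 weeks was grown for 7 days with 500 U/ml GM-CSF, a growth factor under which marrow precursors become dendritic cells. The control was such cells alone. In the live coculture they were kept with 1D8 cells, a mouse line from ovarian surface epithelium, at 1 tumour cell to 5 dendritic cells. For the irradiated coculture the tumour cells were first given 50 Gy, and in the conditioned medium the dendritic cells met no tumour cell but 25% by volume of 1D8 supernatant. Cells of every condition were stained for CD80, a surface ligand that costimulates T cells, and isolated on a flow sorter before RNA was extracted. A single biological sample on 1 array stood for each condition, and 1D8 cells on their own were not analysed here. No spread between replicates could therefore be computed, no test was run, and every statement describes these 4 arrays.

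Type I interferons bind a receptor made of IFNAR1 and IFNAR2, whose kinases TYK2 and JAK1 phosphorylate STAT2. With IRF9 it forms part of a complex that binds interferon-stimulated response elements in promoters and starts transcription of the genes described here. Their products sense viral RNA and DNA, degrade or edit double-stranded RNA, block translation and budding, and attach or remove the ubiquitin-like protein ISG15. Dendritic cells both make type I interferon and respond to it, and a low tonic level of the response is known in many unstimulated cells.

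The core of the response element, read as GAAA, then any 2 bases, then GAAA, was searched on both strands of RefSeq promoters (assembly GRCm38.p6, 250 bases before to 50 bases after each annotated start). Of the 43 measured genes 33 had a promoter entry, and 18 of these (54.5%) held the core, against 3.99% of all 27025 genes and 3.44% of all 32851 promoters. The gamma-activated site, TTCNNNGAA, was held by 9 of the 33 (27.3%), against 9.55% of all genes and 8.3% of all promoters, and matches that overlap between the motifs were kept for both. The stretches below are printed because they show the same core in genes that the arrays separate. Stat2, Ddx60 and Oas3 exceeded the control at least 2-fold in conditioned medium, whereas Rsad2, Bst2, Gbp2, Ifit1 and Igtp did not. They read 5′ to 3′ on the strand of the gene, and capitals mark the core, which begins and ends in TTTC where it lies on the opposite strand.
Stat2, chr10:128270256-128270305, plus strand: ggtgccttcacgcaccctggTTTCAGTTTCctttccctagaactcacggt
Ddx60, chr8:61928014-61928063, plus strand: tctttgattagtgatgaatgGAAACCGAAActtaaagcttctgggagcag
Oas3, chr5:120777705-120777754, minus strand: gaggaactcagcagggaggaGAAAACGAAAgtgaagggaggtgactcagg
Rsad2, chr12:26456543-26456592, minus strand: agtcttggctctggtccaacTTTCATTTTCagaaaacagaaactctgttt
Bst2, chr8:71537567-71537622, minus strand: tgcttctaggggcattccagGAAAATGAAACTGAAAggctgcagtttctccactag
Gbp2, chr3:142620584-142620633, plus strand: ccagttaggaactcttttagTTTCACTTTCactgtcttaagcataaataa
Ifit1, chr19:34640765-34640833, plus strand: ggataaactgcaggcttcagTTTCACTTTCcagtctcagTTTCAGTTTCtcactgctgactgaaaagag
Igtp, chr11:58199502-58199551, plus strand: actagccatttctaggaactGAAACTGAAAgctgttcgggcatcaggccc

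Counted in bases before the annotated start, the core began 222 away in Stat2, 53 and again 19 in Ddx60, 75 in Oas3, 120 in Rsad2, 59 in Gbp2 and 34 in Igtp. Ifit1 held 2 copies, 104 and 85 bases before its start, and Bst2 held a pair that overlap, 130 and 124 bases before it. Of the 8 genes that had a promoter entry and were at least 2-fold higher in conditioned medium, 3 held the core, and Ifit2, Irf7, Oasl2, Sp100 and Xaf1 did not in this window. The median log2 ratio of conditioned medium to control was 0.41 over the genes with the core and 0.62 over those without it. In the live coculture the medians were -0.53 with the core and -0.26 without it. Genes with the core in this window did not have the higher median in conditioned medium.

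The authors' values are MAS5 signals, linear intensities in which mismatch probes have been subtracted, and they had been scaled to the same trimmed mean of 150.0 on each array. Signals below a floor of 44.3, the median of all signals pooled over the arrays, were raised to it. Higher and lower mean, in counts, that such signals differed at least 2-fold. Unless another probe set is named, every value and count is that of a gene's brightest probe set. Between 58.8 and 62.5% of all genes lay above the floor on each array, and 39 of the 43 interferon response genes did so on all 4. Mx2 was under the floor on every array, Cxcl10 exceeded it only in the irradiated coculture, Cmpk2 was under it in the live coculture, and Ifit3 in the irradiated coculture.

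Markers of other cell types differed between the sorted samples. The signals of 12 epithelial and mesothelial markers summed to 445.1 in the control, 2881.1 with live 1D8 cells, 3557.9 with irradiated 1D8 cells and 794.7 with conditioned medium, and the numbers above the floor were 3, 9, 10 and 5. Krt19, a keratin of such cells, gave 8.6, 569.7, 767.4 and 22.2 in the same order, while Krt7 and Cldn7 were under the floor on every array. Sums over 11 dendritic cell markers were 20848.0, 12195.2, 12921.5 and 17697.9, but not all of them were lower. Cd80, the marker of the sort, gave 85.5, 378.2, 325.8 and 201.3, or 4.42-fold, 3.81-fold and 2.35-fold above the control, and Cd86 was 2.28-fold higher in the irradiated coculture. More dendritic cell markers were 2-fold lower, namely 4, 3 and 3 in live coculture, irradiated coculture and conditioned medium, beside 2.23%, 2.25% and 1.41% of all genes. Ccl22 (6.18-fold, 4.71-fold and 3.98-fold) and Ccr7 (4.53-fold, 5.08-fold and 3.39-fold) were lower in all 3. H2-Eb1 was lower in both cocultures, H2-Ab1 in the live one and Ccl17 in conditioned medium. Sums over 9 macrophage markers were 36765.4, 30292.1, 32857.5 and 35076.6. Of 8 measured markers of plasmacytoid dendritic cells, the main interferon producers, the sums were 1020.0, 895.9, 860.5 and 1244.1, with Ccr9 and Pacsin1 under the floor on every array and Bst2 itself an interferon response gene. Sums over 11 neutrophil markers were 7963.2, 3538.0, 4235.1 and 7946.4, of which Mmp8 alone made 5677.4, 2635.4, 3101.6 and 6901.5. Of these 11 markers 6, 5 and 4 were 2-fold lower in live coculture, irradiated coculture and conditioned medium, beside 2.23%, 2.25% and 1.41% of all genes. The 4 were S100a9, Ctsg, Ngp and S100a8. Sums over 6 mast cell or basophil markers were 1400.2, 290.3, 360.6 and 822.8. Fewer cells of a type and less RNA per cell cannot be told apart in such bulk samples. The part of these shifts in the results below was not tested.

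Most interferon response genes had their highest signal in conditioned medium and lower signals in both cocultures than in the control. Over the 43 genes the median signal was 302.1 in the control, 193.8 with live 1D8 cells, 222.5 with irradiated 1D8 cells and 404.9 with conditioned medium. Conditioned medium gave the highest of the 4 signals for 33 of the 42 genes above the floor somewhere, against 26.3% of 12422 genes overall. Both cocultures lay below the control for 29 of the 42, against 40.8% of all genes, and 24 combined this with a signal above the control in conditioned medium, against 9.07%. Conditioned medium exceeded both cocultures for 37 of the 42, against 41% of all genes. The control array was highest for 5, namely Adar, Igtp, Irgm1, Ifi35 and Tor3a, against 31.7%. Igtp and Irgm1 are GTPases better known as interferon gamma targets, and Adar edits adenosines in double-stranded RNA.

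**Figure D1:**
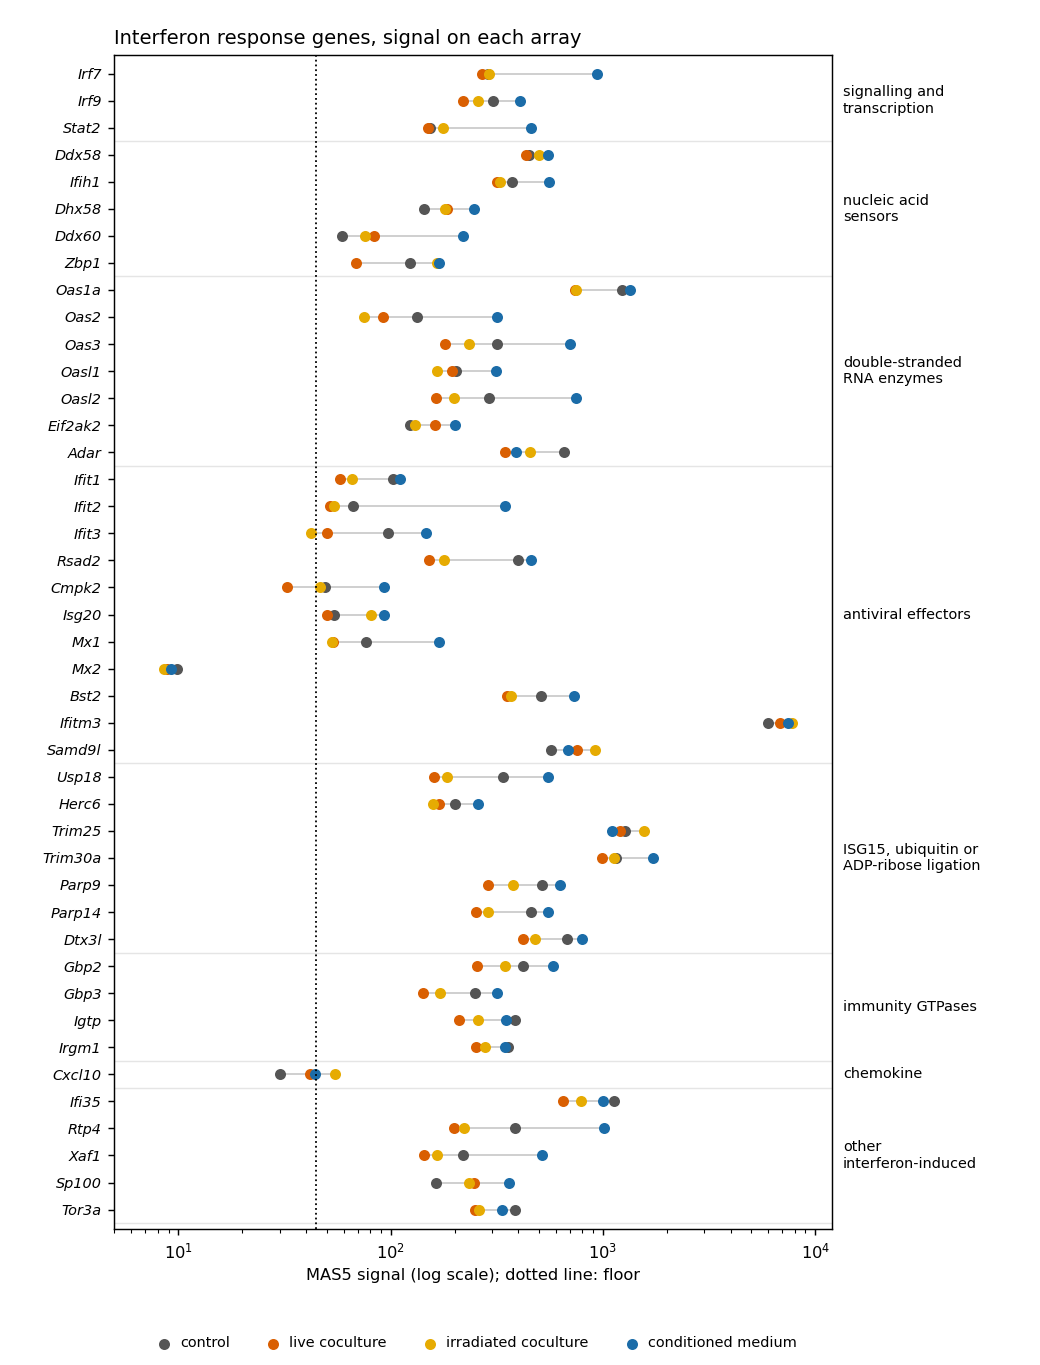
MAS5 signal (log axis) of each measured interferon response gene on the 4 arrays, 1 point per array and gene, with the floor of 44.3 marked. Points of conditioned medium lie farthest right for 33 of the 42 genes above the floor, and those of the cocultures lie left of the control for 29.

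In conditioned medium, 11 of the 43 genes were at least 2-fold above the control, where 2.3% of all genes were, and 0 were lower, where 1.41% were. The 11 were Ifit2, Ddx60, Irf7, Stat2, Rtp4, Oasl2, Oas2, Xaf1, Oas3, Sp100 and Mx1. The median log2 ratio was 0.47, with 35 genes above 0, 6 below and 2 at 0, whereas the 9847 genes above the floor on all arrays had a median of 0.00. Among all genes ordered by this ratio, Ifit2 stood at place 9, Ddx60 at 28, Irf7 at 50 and Stat2 at 65.

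In the live coculture 0 of the 43 were at least 2-fold higher than in the control, where 3.36% of all genes were, and 2, Rsad2 and Usp18, were lower, where 2.23% were. The count of lower genes, 2 of 43, was thus close to the background. The median log2 ratio was -0.52, with 35 genes below 0, 6 above and 2 at 0, against a median of -0.04 over genes above the floor. The 6 above 0 were Sp100 (0.59), Ddx60 (0.50), Samd9l (0.41), Eif2ak2 (0.39), Dhx58 (0.37) and Ifitm3 (0.20). In the irradiated coculture 0 were higher, where 3.47% of all genes were, and 2, Rsad2 and Ifit3, were lower, where 2.25% were. Its median was -0.35, with 29 genes below 0 and 13 above, against -0.05. Both cocultures and conditioned medium were set against the same control array, so a low or high value there enters all 3 ratios of a gene.

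**Figure D2:**
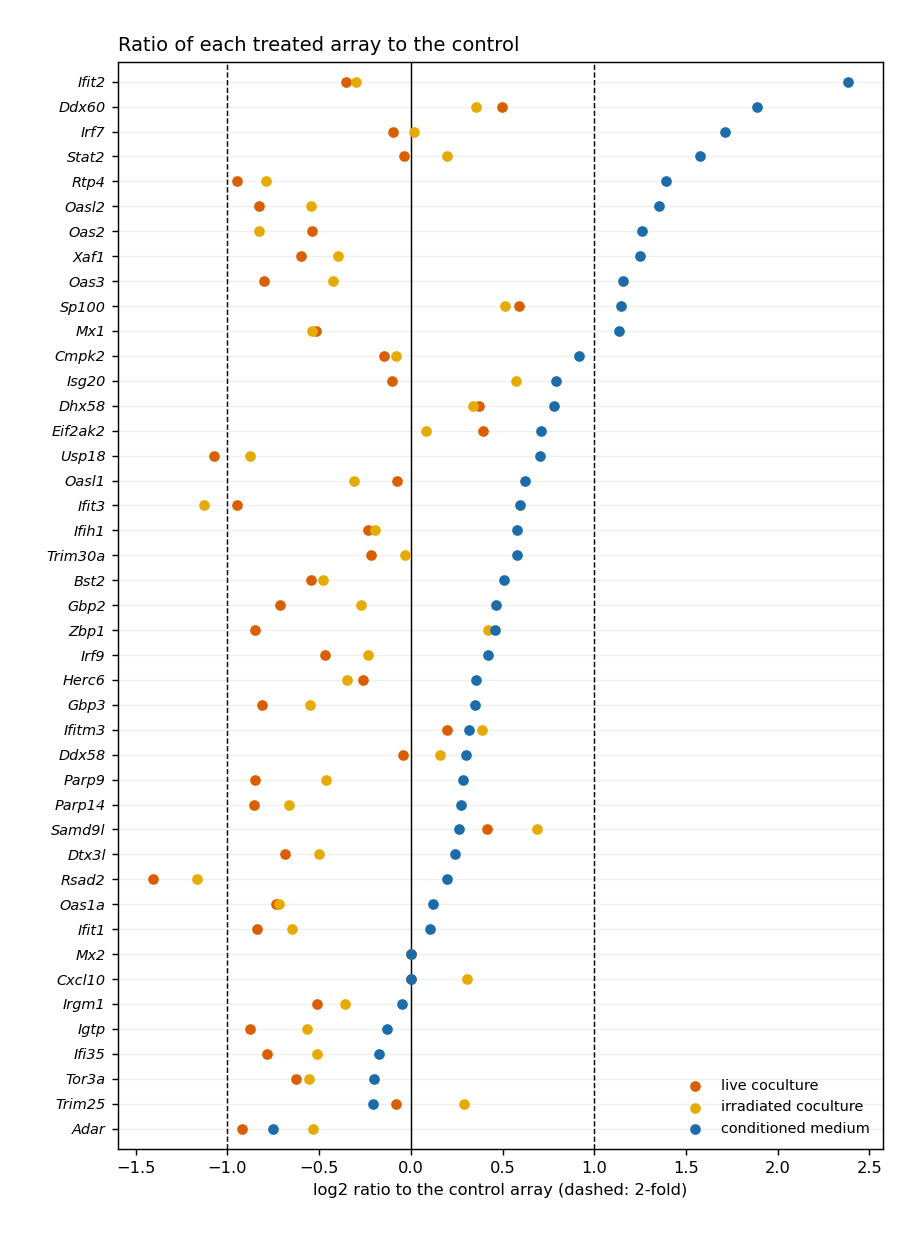
Log2 ratio to the control of each measured interferon response gene in live coculture, irradiated coculture and conditioned medium, with dashed lines at 2-fold. In conditioned medium 11 genes lie past the upper line, and 2 in each coculture lie past the lower line.

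The comparisons of conditioned medium with each coculture do not use the control array. Against the live coculture, 20 of the 43 genes were at least 2-fold higher in conditioned medium, where 1.14% of all genes were, and 0 were lower, where 1.75% were. The median log2 ratio was 0.93, against 0.03 over genes above the floor. Against the irradiated coculture, 13 were higher, where 1.24% of all genes were, and 0 lower, where 1.95% were, with a median of 0.75 against 0.04. All of these 13 were among the 20, and the other 7 were Zbp1, Gbp2, Gbp3, Parp9, Parp14, Cmpk2 and Bst2. These contrasts set a culture without tumour cells against ones whose sorted cells carried epithelial marker signal, as given above, and the effect of that signal on the ratios was not tested.

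Live and irradiated coculture were seldom 2-fold apart, with the live one mostly the lower. None of the 43 genes was at least 2-fold higher in the live than in the irradiated coculture, where 0.368% of all genes were, and 1, Zbp1, was lower, where 0.302% were. The live coculture lay below the irradiated one for 33 of the 43 and above it for 9, whereas the 9847 genes above the floor split into 4929 below and 4909 above. The median log2 ratio of live to irradiated was -0.19, and the SD over the 43 genes was 0.27, against a median of 0.00 and an SD of 0.30 over genes above the floor. This SD measures how genes scatter between 2 arrays and is no replicate error.

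**Figure D3:**
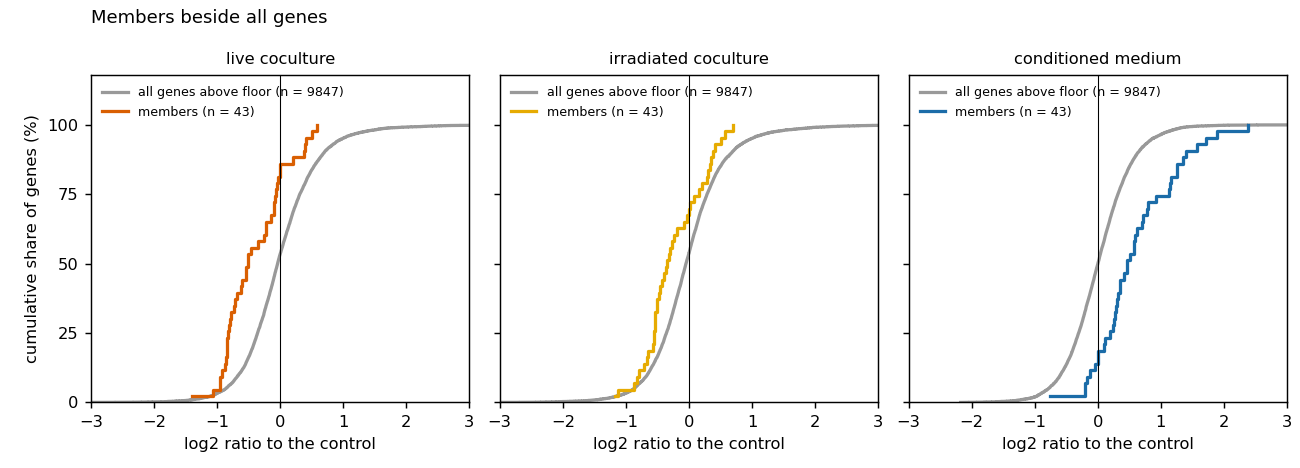
Cumulative share of genes (vertical axis) by log2 ratio to the control (horizontal axis) in each treated condition, for the 43 interferon response genes and for all genes above the floor on all 4 arrays. The curve of the interferon response genes lies to the left in the cocultures, with medians of -0.52 and -0.35, and to the right in conditioned medium, with a median of 0.47.

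Among the genes of signalling and transcription, Irf7 and Stat2 were higher in conditioned medium, and the 3 genes had a median log2 ratio to the control of 1.57 there, -0.10 in the live and 0.02 in the irradiated coculture. Irf7, the factor that amplifies interferon production, had signals of 287.3 in the control, 268.7 with live 1D8 cells, 290.8 with irradiated 1D8 cells and 941.6 with conditioned medium. Only the last stood apart, by 3.28-fold from the control and by 3.50-fold and 3.24-fold from the cocultures. Stat2, a transcription factor of the interferon-activated complex, gave 153.4, 149.3, 176.2 and 456.8 in the same order. Its conditioned medium signal was 2.98-fold above the control. Irf9, the DNA-binding subunit of that complex, gave 302.1, 218.5, 256.8 and 404.9, with log2 ratios of -0.47, -0.23 and 0.42 that did not reach 2-fold. At these probe sets Irf7 and Stat2 were level with the control in the cocultures, although a second probe set of Stat2, described further on, was not.

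Of the 5 sensors of foreign nucleic acid, Ddx60 was higher in conditioned medium, and the median log2 ratios were -0.04, 0.34 and 0.58 in live coculture, irradiated coculture and conditioned medium. Ddx60, a helicase linked to RIG-I signalling, gave 59.2, 83.6, 75.7 and 218.6 across control, live coculture, irradiated coculture and conditioned medium, 3.69-fold above the control in the last. Zbp1, which binds Z-form nucleic acid, gave 123.4, 68.6, 164.9 and 169.8. It was the one gene of the list 2-fold apart between the cocultures, with the live array at the bottom, the irradiated array level with conditioned medium, and 2.40-fold between the cocultures. The RNA helicases Ddx58 (RIG-I), Ifih1 (MDA5) and Dhx58 (LGP2) had log2 ratios to the control between -0.23 and 0.78 at their brightest probe sets.

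Of the 7 enzymes that act on double-stranded RNA, Oasl2, Oas2 and Oas3 were at least 2-fold higher in conditioned medium than the control, and the median over the 7 was 0.71, against -0.74 and -0.53 in the live and irradiated cocultures. Oas2, which makes the 2′-5′ oligoadenylates that activate RNase L, gave 132.9 in the control, 91.6 with live 1D8 cells, 75 with irradiated 1D8 cells and 318.2 with conditioned medium. Oas3, another such synthetase, gave 315.5, 180.9, 235.1 and 702.5. Oasl2, a relative of these enzymes, gave 291.1, 164.0, 199.8 and 743.5. In all 3 genes both cocultures lay under the control and conditioned medium lay above it, so that the distance from the live coculture to conditioned medium reached 3.47-fold, 3.88-fold and 4.53-fold. Oas1a, Oasl1, Eif2ak2 (the translation-blocking kinase PKR) and Adar did not reach 2-fold against the control at their brightest probe sets, with log2 ratios from -0.92 for Adar in the live coculture to 0.71 for Eif2ak2 in conditioned medium.

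Of the 11 antiviral effectors, Ifit2 and Mx1 were higher in conditioned medium, Rsad2 was lower in both cocultures and Ifit3 in the irradiated one. Ifit2, which binds AU-rich and viral RNA, had signals of 66.2, 51.9, 53.9 and 345.3 in control, live coculture, irradiated coculture and conditioned medium. The last was 5.22-fold above the control, and the 6.65-fold distance from the live coculture was the widest of any of the 43 genes. Ifit3, which stabilises IFIT1, gave 96.8, 50.2, 42.0 and 146.4, at least 2.19-fold lower than the control in the irradiated coculture, where it was under the floor. Rsad2, the enzyme viperin that makes a chain-terminating nucleotide, gave 399.6, 150.9, 178.1 and 457.8. It was 2.65-fold lower in the live and 2.24-fold lower in the irradiated coculture, while conditioned medium and control were within 1.15-fold of each other at this probe set.

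Mx1, Cmpk2 and Bst2 were also highest in conditioned medium, and Ifitm3 was not. Mx1, a GTPase, gave 76.9, 53.7, 52.9 and 168.6 across the same arrays, with conditioned medium 2.19-fold above the control. Cmpk2, a nucleotide kinase that lies beside Rsad2 in the genome, gave 49.0, 32.5, 46.4 and 92.6, so 3 of its signals were near or under the floor. Bst2 (tetherin), which holds budding virus at the cell surface, gave 512.8, 352.0, 368.5 and 730.1. Both coculture arrays lay below the control and conditioned medium above it, without reaching 2-fold in either direction. Ifitm3, a membrane protein that hinders viral fusion, broke the pattern with 5968.2, 6852.9, 7804.5 and 7424.6. Its 4 signals spanned 1.31-fold and the control was the lowest. Ifit1, Isg20 and Samd9l stayed within 2-fold of the control, with log2 ratios from -0.84 for Ifit1 in the live coculture to 0.79 for Isg20 in conditioned medium.

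None of the 7 measured genes of ISG15 and of ubiquitin or ADP-ribose ligation passed 2-fold in conditioned medium against the control, and the group's medians were -0.69, -0.46 and 0.29 in live coculture, irradiated coculture and conditioned medium. Usp18, the protease that removes ISG15 and a brake on the interferon receptor, gave 336.8 in the control, 160.3 with live 1D8 cells, 183.5 with irradiated 1D8 cells and 549.5 with conditioned medium. It was 2.10-fold lower than the control in the live and 1.84-fold lower in the irradiated coculture. Parp9 and Parp14, PARP family proteins induced by interferon, gave 517.4, 287.0, 375.6 and 630.5, and 457.9, 253.2, 288.5 and 553.6. For both, the live coculture was the low array and conditioned medium the high one, with 2.20-fold and 2.19-fold between those 2. Herc6, Trim25, Trim30a and Dtx3l did not reach 2-fold between any 2 arrays at their brightest probe sets, although dimmer ones of Herc6, Trim30a and Dtx3l did. The probe set shared by Isg15 and Gm9706 gave 108.5, 95.8, 106.5 and 163.4, with log2 ratios of -0.18, -0.03 and 0.59, and cannot be assigned to either gene.

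The 4 immunity GTPases, which attack vacuoles of intracellular pathogens, had medians of -0.76, -0.45 and 0.15. Gbp2 gave 419.7, 255.6, 347.1 and 579.7 across control, live coculture, irradiated coculture and conditioned medium, and Gbp3 gave 248.7, 141.9, 170.2 and 316.5. Their live coculture signals were the lowest, and the distance to conditioned medium was 2.27-fold for Gbp2 and 2.23-fold for Gbp3. Igtp and Irgm1 had log2 ratios of -0.87 and -0.51 in the live coculture and were close to the control in conditioned medium, at -0.13 and -0.05. Cxcl10, a chemokine for T cells and a common readout of interferon, gave 54.7 in the irradiated coculture and was under the floor on the other arrays.

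In the remaining group Rtp4, Xaf1 and Sp100 were higher in conditioned medium, and the 5 measured genes had medians of -0.62, -0.51 and 1.14. Rtp4, a chaperone of receptors at the cell surface, gave 384.1 in the control, 198.9 with live 1D8 cells, 222.5 with irradiated 1D8 cells and 1007.4 with conditioned medium. Conditioned medium was 2.62-fold above the control and 5.06-fold above the live coculture, the second widest distance after Ifit2. Xaf1, a pro-apoptotic antagonist of XIAP, gave 218.5, 144.3, 166.1 and 519.2. Sp100, a component of nuclear bodies, gave 163.4, 246.0, 233.5 and 361.3. Unlike Rtp4 and Xaf1, Sp100 had its lowest signal in the control and was above it on all treated arrays, at its brightest probe set. Ifi35 and Tor3a stayed within 2-fold of the control, with log2 ratios between -0.78 and -0.17.

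Genes that lie next to each other had unequal ratios in several places. Ifit2 and its neighbour Ifit3 on chromosome 19 had log2 ratios of 2.38 and 0.60 in conditioned medium, and Ifit1, with 3 genes between it and Ifit3, had 0.11. Oasl2 and Oasl1 on chromosome 5 had 1.35 and 0.62, and Rsad2 and Cmpk2 on chromosome 12 had 0.20 and 0.92. Dimmer probe sets of Rsad2 had 0.99 and 0.39, so the difference within that last pair depends on the probe set. By contrast Oas2 and Oas3 on chromosome 5 were close, at 1.26 and 1.15, as were Parp14, Dtx3l and Parp9 on chromosome 16, at 0.27, 0.24 and 0.29. Sequences of these families are related, and how far their probe sets cross-hybridise cannot be read from the signals.

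Other probe sets of a gene give the only second measurement on the same array. The 43 genes had 73 probe sets, 20 genes having several. In conditioned medium, of 28 further probe sets above the floor in 18 genes, 19 (67.9%) had a higher ratio to the control than the brightest one, with a median difference of 0.31. The share over all genes was 60.7%, with a median difference of 0.14, so the share is near that of the arrays as a whole. Of the 28, 8 were at least 2-fold higher than the control and 0 lower, where 793 of 8716 were higher and 168 lower over all genes. With live 1D8 cells 19 of 27 (70.4%) read above the brightest, with a median difference of 0.42, against 61.1% and 0.16 over all genes. That difference, from probe sets of 17 genes, is not much smaller than the group's median ratio of -0.52 at the brightest probe sets. With the mean over all probe sets of each gene, the median over the 43 genes was -0.47 in the live and -0.31 in the irradiated coculture. Of the 27 further probe sets with live 1D8 cells, 1 was at least 2-fold higher than the control and 5 lower. Over all genes 1000 of 8884 were higher and 277 lower. With irradiated cells 17 of 26 (65.4%) did, with a median difference of 0.33, against 58.7% and 0.12, and 0 of the 26 were 2-fold higher or lower, where 825 and 260 of 8727 were. From the differences within such pairs in conditioned medium, a single log2 ratio had an SD of 0.52 over the interferon response genes and 0.46 over all genes. This is scatter between probe sets on the same arrays, and it includes the median difference of 0.31 between dimmer and brightest ones. It applies to the ratio of 1 gene, and is neither a replicate error nor the error of the median over the 43 genes.

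**Figure D4:**
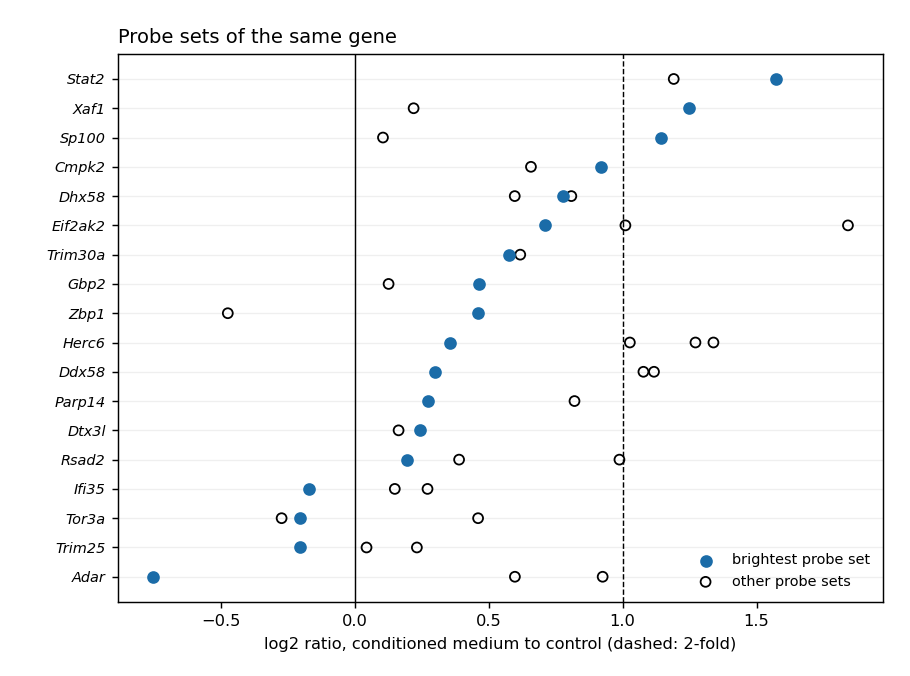
Log2 ratio of conditioned medium to the control for the interferon response genes with a further probe set above the floor on either of these arrays. The brightest probe set is marked apart from the others, and further probe sets under the floor on both arrays are not shown. For Herc6, Ddx58 and Eif2ak2 the dimmer probe sets lie past 2-fold in conditioned medium while the brightest does not. Those of Ddx58 were under the floor on the control array.

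Disagreement between probe sets touched several genes named above. Stat2 had a second probe set with signals of 108.2, 46.5, 61.0 and 247.0 in control, live coculture, irradiated coculture and conditioned medium. It agreed on conditioned medium, with a log2 ratio of 1.19, but gave -1.22 and -0.83 in the cocultures where the brightest gave -0.04 and 0.20, so no direction can be given for Stat2 there. For Rsad2 the other probe sets had log2 ratios of -0.22 and -1.02 in the live and -0.18 and -0.39 in the irradiated coculture, and the mean over its probe sets, -0.88 and -0.58, no longer reached 2-fold. In conditioned medium those other probe sets had 0.99 and 0.39, against 0.20 at the brightest. Other dimmer probe sets passed 2-fold in the live coculture where the brightest did not, with log2 ratios of -1.24 for Adar, -1.20 for Gbp2, -1.09 for Dtx3l and 1.23 for Eif2ak2. Adar had log2 ratios of 0.93 and 0.60 in conditioned medium at its dimmer probe sets and -0.75 at the brightest, so its direction there is not settled. Sp100 and Xaf1 had a second probe set with 0.11 and 0.22 in conditioned medium, far under the 1.14 and 1.25 of the brightest. The second probe sets went the other way from the brightest, at -0.43 and -0.37 for Sp100 and 0.65 and 0.56 for Xaf1 in the cocultures, so neither gene has a settled direction there. Zbp1 had a dimmer probe set that was under the floor on all treated arrays and so showed no difference between the cocultures. Ifit2, Irf7, Oas2, Oas3, Oasl2 and Mx1 each rest on 1 probe set.

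The interferons themselves were near or under the floor. Of 20 listed type I and III interferon genes 9 were measured, with 0 reaching a 2-fold difference from the control in any treatment. Ifnb1 gave 56.1 in the control, 40.5 with live 1D8 cells, 49.4 with irradiated 1D8 cells and 32.7 with conditioned medium. Ifna1 exceeded the floor only in the control, at 83.4, and Ifnz only in conditioned medium, at 55.5. No interferon gene was thus 2-fold higher on the array where the response genes were highest, within what the floor allows to be seen.

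Interferon receptors and their kinases were also within 2-fold of the control on all arrays at their brightest probe sets, 0 of 7 genes being higher or lower. The 7 were Ifnar1, Ifnar2, Tyk2 and Jak1, with Ifngr1, Ifngr2 and Jak2 of interferon gamma signalling. Ifngr1 came nearest to 2-fold, being 1.79-fold above the control in conditioned medium and 1.73-fold in the irradiated coculture. Ifnar1 gave 477.8, 324.9, 398.2 and 433.5, and Ifnar2 gave 939.8, 884.3, 1106.2 and 1439.3. Tyk2, the kinase in the title of the series, gave 397.2, 457.8, 439.7 and 393.4. Of 7 measured STAT and IRF factors outside the list none reached 2-fold, and Irf1 came nearest to the pattern of the response genes with 827.3, 459.7, 628.4 and 902.6. Among 9 measured genes of nucleic acid sensing upstream of interferon, only Tlr7 passed 2-fold, 2.05-fold lower in the irradiated coculture, and Tlr3, the receptor of the title, gave 80.6, 79.8, 117.8 and 91.9.

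Of 9 brakes on interferon signalling, Socs3 and Cish took another order than the response genes, but the list was not uniform. Socs3, an inhibitor of JAK kinases, gave 399.9 in the control, 953.9 with live 1D8 cells, 1486.3 with irradiated 1D8 cells and 705.7 with conditioned medium. Cish, a relative that acts on STAT5, gave 300.2, 591.1, 853.0 and 335.5. Socs3 was highest in the cocultures, where the response genes were lowest, and was also above the control in conditioned medium, by 1.76-fold, where they were highest. Irf2, Trim24 and Pias1 were highest in conditioned medium, with log2 ratios of 0.79, 0.81 and 0.51 there, and Ptpn6 was below the control on all treated arrays. Socs1 exceeded the floor only in the irradiated coculture, at 75.8. Conditioned medium lay above the live coculture for 4 of the 9 brakes and below it for 4. In the live coculture 1 (Socs3) was 2-fold higher, in the irradiated one 2 (Socs3 and Cish) and in conditioned medium 0, beside 3.36%, 3.47% and 2.3% of all genes. The median log2 ratio was 0.26, 0.31 and 0.16 in live coculture, irradiated coculture and conditioned medium. Whether Socs3 and the response genes are related cannot be read from 4 arrays.

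A second list of 47 genes also known as type I interferon targets, of which 40 were measured, showed the same order with smaller ratios. Its medians were -0.39 with live 1D8 cells, -0.12 with irradiated 1D8 cells and 0.29 with conditioned medium. In the live coculture 2 of the 40 were at least 2-fold higher than the control and 5 lower, beside 3.36% and 2.23% of all genes, and in the irradiated coculture 2 were higher and 1 lower, beside 3.47% and 2.25%. Among the lower ones was Ifi27l2a, with 1054.7, 383.8, 632.8 and 1367.1 across the arrays. In conditioned medium 5 were at least 2-fold above the control, beside 2.3% of all genes, and 1, Nmi, was 2.08-fold lower, beside 1.41%. The higher ones were Slfn4 (5.78-fold), Slfn1 (4-fold), Ms4a4c (2.23-fold), Ifi204 (2.19-fold) and Pml (2.05-fold). Slfn4 gave 175.6, 745.9, 968.6 and 1014.8 and Slfn1 gave 139.2, 391.4, 663.1 and 556.3, so these schlafen genes were high on all treated arrays, unlike most of the 43. Against the live coculture 7 of the 40 were higher in conditioned medium and 0 lower, beside 1.14% and 1.75% of all genes. Against the irradiated coculture 4 were higher and 0 lower, beside 1.24% and 1.95%.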

How the data were processed

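RNA was measured on 4 Affymetrix mouse arrays, 1 for each condition. The deposited values are signal intensities of probe sets, computed by the authors in GCOS 1.4 with MAS5, per the submitters' processing notes. The scaling target is not given in the sources used here. The table held 45101 probe sets: 64 controls were left out, 34945 had 1 gene, 932 several and 9160 none in the platform annotation. Genes were represented by 1 probe set, signals under 1 being set to 1 for the ranking. Promoter sequences and gene order came from RefSeq tables of GRCm38.p6.

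Signals were floored at the 50th percentile (44.3) and compared as log2 ratios, with 2-fold as threshold. Members and lists were chosen with earlier results of these data known. Signals on all arrays are given for response genes 2-fold apart between any pair of arrays, and for Stat2, Irf9, Irf7, Isg15, Ifitm3 and Bst2. Of the interferon, receptor, factor, sensing and brake lists they are given only for Ifnb1, Ifnar1, Ifnar2, Tyk2, Irf1, Tlr3, Socs3 and Cish. That subset, Pml, Nmi and the markers given with values were picked after their values were seen. Alternatives were floors at the 25th (12.9) and 75th (155.6) percentiles, quantile normalization, median centring, the mean over probe sets, signal plus floor before the logarithm, and a 3-fold threshold. The steps were tested on simulated data. Python 3.11.15, numpy 2.4.6, pandas 2.3.3 and matplotlib 3.10.9 were used. With 1 array per condition, the number of arrays limits the precision.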

Additional observations from a re-analysis of the deposited data

Results flagged for a closer look

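Several genes counted as not 2-fold higher in conditioned medium had a dimmer probe set, not used in the comparisons above, that was at least 2-fold higher than in the control. For Ddx58 these were 2 probe sets with log2 ratios of 1.12 and 1.08, against 0.30 at the brightest. For Eif2ak2 they were 2 with 1.01 and 1.84, against 0.71. For Herc6 they were 3 with 1.34, 1.03 and 1.27, against 0.36. A probe set annotated to both Trim30d and Trim30a had 1.08, against 0.58 at the brightest probe set of Trim30a alone. No rule for samples far from their group could be applied, since each condition has 1 array.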

How the results depend on the processing

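No paired analysis was possible because each condition has 1 array, and no array could be left out. No median changed sign under any alternative that gave one. The check on counts could show a change in size only, not in direction. In conditioned medium against the control the 11 higher genes became 3 at a 3-fold threshold, where 0.335% of all genes were higher. They became 8 to 11 otherwise, where 0.934 to 5.98% of all genes were. The median of 0.47 became 0.32 with the 75th percentile floor, 0.35 with centring and 0.58 with the mean over probe sets. Irf7, Stat2, Oas2, Oas3, Oasl2 and Ifit2 were higher under all 7 settings with a 2-fold threshold, of 12 genes higher under any. Among these only Stat2 has a further probe set, so the mean over probe sets could not change the others. Mx1 (0.12) and Ddx60 (0.49) missed the 2-fold threshold with the 75th percentile floor. Rtp4 (0.70), Xaf1 (0.73), Sp100 (0.63) and Ddx60 (0.94) missed it with the mean over probe sets. The second probe sets of Rtp4 and Ddx60 were under the floor on every array, so they entered that mean as a ratio of 0. Mx1 also missed the 2-fold threshold after quantile normalization (0.93) and with signal plus floor (0.81), as did Sp100 with signal plus floor (0.97). Eif2ak2 (1.19) was added by the mean over probe sets.

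In the live coculture the 2 lower genes became 6 after quantile normalization and 5 with centring, where 2.65% and 3.07% of all genes were lower. They became 1 with the mean over probe sets or with signal plus floor and 0 at 3-fold, where 1.38%, 1.48% and 0.423% were. The median of -0.52 became -0.22 with the 75th percentile floor, -0.64 with centring and -0.40 with signal plus floor. In the irradiated coculture the 2 became 1 with the 75th percentile floor or the mean over probe sets, where 1.28% and 1.45% of all genes were lower. They became 0 with signal plus floor or at 3-fold, where 1.43% and 0.528% were. The median there became -0.19 with the 75th percentile floor. No gene was lower in either coculture under all 7 settings. Against the live coculture the 20 higher genes became 11 at 3-fold, where 0.203% of all genes were higher. The median of 0.93 became 0.70 with the 75th percentile floor and 0.82 with signal plus floor. Against the irradiated coculture the 13 became 8 at 3-fold, where 0.192% of all genes were higher, and the median became 0.63 with the 75th percentile floor. The 1 gene lower in live than irradiated coculture became 0 with the 75th percentile floor, the mean over probe sets, signal plus floor or 3-fold. The shares of all genes lower were then 0.0715%, 0.165%, 0.176% and 0.022%. Where a threshold or floor alone was raised, fewer genes could pass. Apart from the floored second probe sets of Rtp4 and Ddx60, the cause of the other changes was not tested.

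Centring lowered the median of genes above the floor by 0.12 with live and 0.07 with irradiated 1D8 cells, and by 0.11 in conditioned medium. The split of all genes 2-fold higher and lower in conditioned medium was 419 to 256 as deposited, 284 to 340 after quantile normalization and 300 to 408 after centring. In the live coculture it was 612 to 406, 478 to 482 and 490 to 559. Under quantile normalization, centring and the mean over probe sets, alternatives chosen after seeing the data, conditioned medium was the highest array for 32 to 34 genes and both cocultures lay below the control for 29 to 30.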

Other observations

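Medians of the interferon gamma response genes took the same order over the treated arrays as those of the 43 genes, with smaller ratios. Unlike the 43 genes, their median in conditioned medium was level with the control, with 9 genes above it, 6 below it and 5 at a log2 ratio of 0. Medians of NF-kappaB targets took another order. Of 20 measured interferon gamma response genes, 0 were 2-fold higher in any treated condition. The shares of all genes higher were 3.36%, 3.47% and 2.3% in live coculture, irradiated coculture and conditioned medium. In the live coculture 1 was lower and in the irradiated one 2, beside 2.23% and 2.25% of all genes. The medians were -0.21, -0.03 and 0.00 in live coculture, irradiated coculture and conditioned medium. Conditioned medium lay above the live coculture for 14 of the 20 and below it for 2. Ciita, the master regulator of MHC class II, gave 178.4 in the control, 48.5 with live 1D8 cells, 64.9 with irradiated 1D8 cells and 176.7 with conditioned medium.

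Of 17 measured NF-kappaB target genes, 8 were 2-fold higher and 2 lower in each coculture. The shares of all genes were 3.36% higher and 2.23% lower in the live coculture, and 3.47% and 2.25% in the irradiated one. In conditioned medium 6 were higher and 0 lower, beside 2.3% and 1.41% of all genes. Their medians were 0.89, 0.49 and 0.30, so the median of this list was highest in the cocultures, where that of the interferon response genes was lowest. In each coculture 11 of the 17 lay above the control and 6 below it. Conditioned medium was 2-fold lower than the live coculture for 8 of the 17 and higher for 1, beside 1.75% and 1.14% of all genes.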
